A study of Mus musculus with 35 samples.

Results

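Immunoglobulin genes encode the antibody chains of B lymphocytes. The set described here holds every gene annotated on the array whose symbol begins with Igkv, Igkc, Ighv, Ighg, Igha, Iglv or Iglc, together with Ighm, Ighd and Jchain (older symbol Igj). By this rule 27 of the 361 such genes in the reference gene table had a probe, and 21 of the 27 passed the filter on detection and were tested among 16972 genes. The 21 comprised 13 genes of the kappa light chain locus, 6 of the heavy chain locus, 1 of the lambda light chain locus and Jchain. No probe was annotated to Igha, Ighd or an Iglc gene, so the alpha and delta heavy chain constant regions and the lambda constant regions were not measured.

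An antibody is built from heavy chains and light chains, and a light chain is either kappa or lambda. Each B cell joins 1 variable (V) segment of a locus to shorter segments and splices the joined exon to a constant region, so V segments differ between clones while constant regions are shared by all cells that use the locus. Ighm encodes the mu heavy chain of IgM, Ighg1 the gamma heavy chain of IgG1, Igkc the kappa constant region, and Jchain the small protein that links polymeric IgM and IgA before the polymeric immunoglobulin receptor carries them across epithelia. The thymic medulla holds resident B cells and plasma cells beside its epithelium. V segments of a family are close in sequence and a probe may bind more than the segment it is named for, so a V segment below means the probe's signal.

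The series profiled total RNA of mouse medullary thymic epithelial cells (mTECs), which present tissue-restricted antigens to developing T cells, on Illumina bead arrays. In each of 6 sorts, flow cytometry divided mTECs into cells positive and cells negative for 1 antigen. Pdpn (podoplanin), Gp2, Cea1 and Tspan8 were detected with antibodies, and Gad1 and Ins2 with reporter mice. The usable arrays were 3 Pdpn-positive and 3 Pdpn-negative, 2 Gp2-positive and 3 Gp2-negative, 3 Gad1-positive and 3 Gad1-negative, 3 Cea1-positive and 3 Cea1-negative, 3 Ins2-positive and 2 Ins2-negative, and 3 Tspan8-positive and 3 Tspan8-negative. Every sort had its own negative cells. Strain, age, sex, the reporter alleles, the number of animals pooled and the gate used to remove blood cells were not given in the sources used here. Replicates are called biological in the labels without naming separate animals. P-values therefore rest on the spread between these samples, which the fit drew toward that of other genes.

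Levels are log2 intensities after background correction and quantile normalization, on a scale where the lowest reliably detected probes of an array lay between 4.28 and 4.50. A probe was detected on an array at a detection p-value below 0.05, and 47.1% to 60.8% of all probes were. The genes of the sorted antigens were higher in their positive cells in the Pdpn, Gp2, Gad1, Ins2 and Tspan8 sorts, by 0.66 to 4.80 on the log2 scale, and no array of a positive group overlapped with its negative group. The label Cea1 was not matched to a gene, so that sort has no such check. Of 12 thymic epithelial genes measured, Krt8 lay between 12.86 and 14.09, Aire between 10.05 and 13.19 and Fezf2 between 11.32 and 13.86. Foxn1, from the same list, lay between 4.96 and 7.03, and Psmb11 was detected on 19 arrays and reached 8.83. The probe for Epcam, an epithelial surface marker, was detected on 14 of 34 arrays and never exceeded 6.36. Slides and scan dates were not given in the sources used here, and no batch was examined.

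Kappa, mu and lambda transcripts were detected on all 34 arrays. Igkc ranged from 6.62 to 14.14 with a median of 10.58, Iglv1 (the lambda V segment) from 7.78 to 12.16 with a median of 9.88, and Ighm from 6.75 to 12.25 with a median of 8.67. Among the 16 kappa and heavy chain V segments, Igkv1-110 reached 11.05 and Igkv6-23 reached 10.32, yet both were at background on other arrays. The remaining constant region, Ighg1, was detected on 24 arrays and never exceeded 5.58, and Jchain was detected on 6 arrays and never exceeded 5.28. In bulk RNA of this kind, fewer cells of a type and less RNA per cell cannot be told apart.

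**Figure D1:**
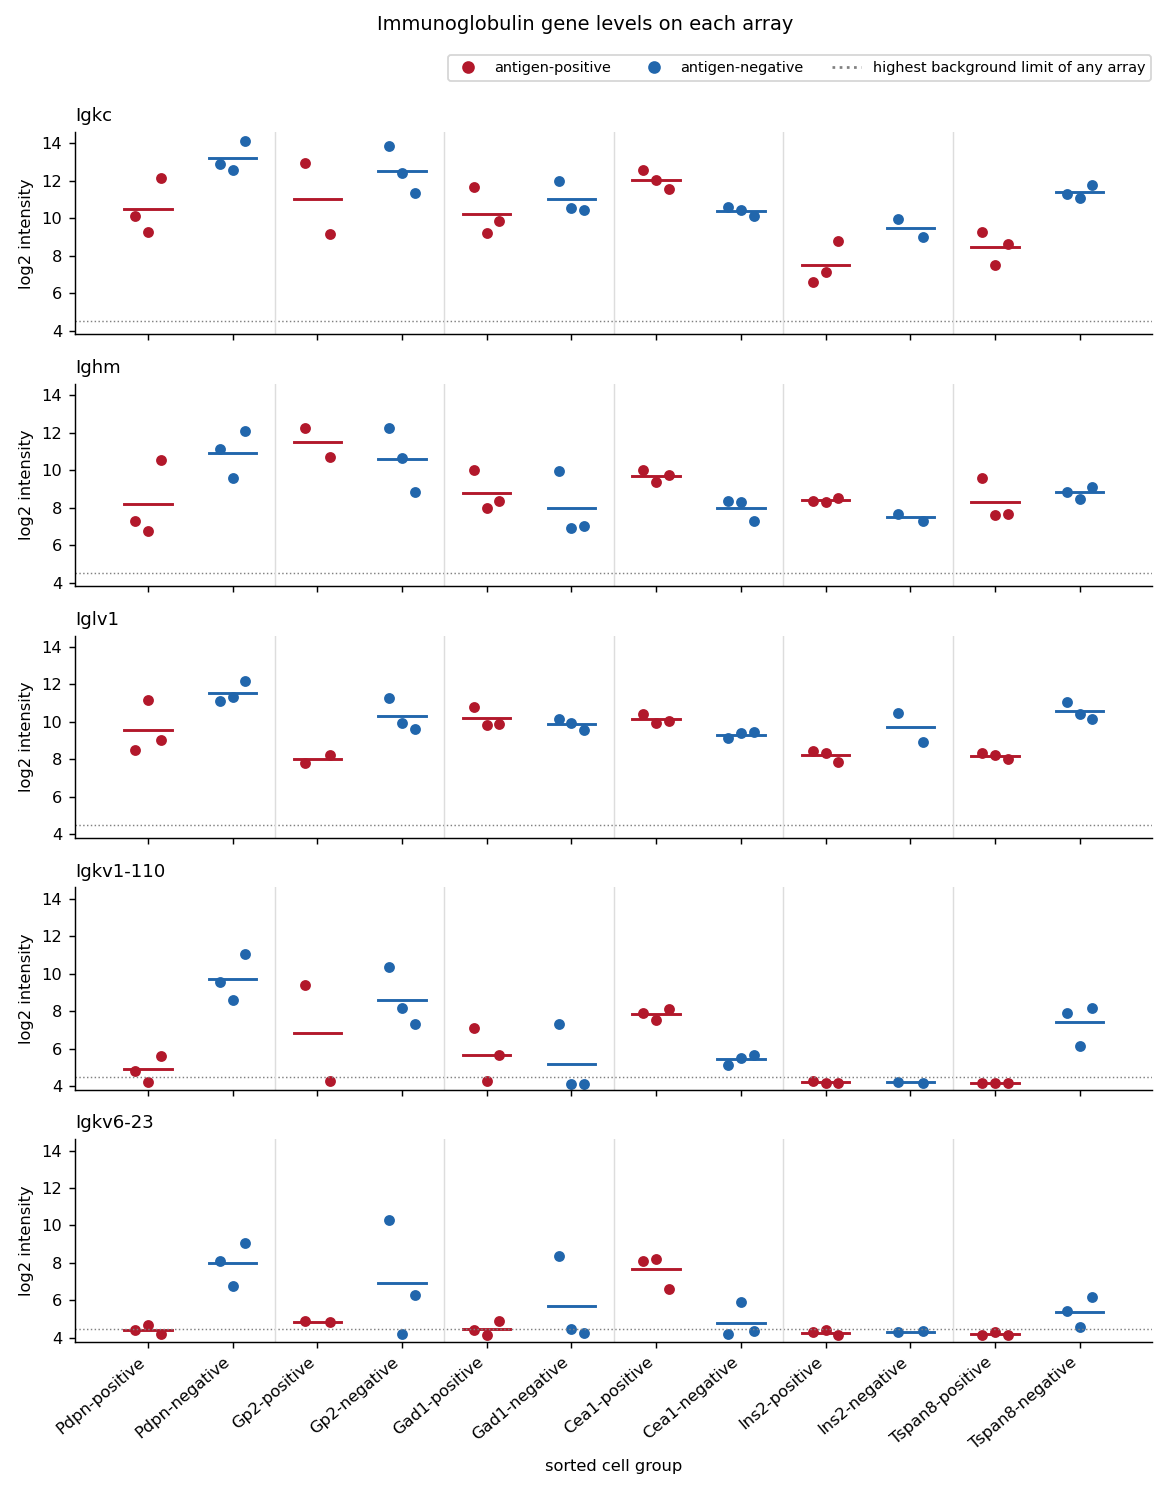
Log2 intensity of Igkc, Ighm, Iglv1, Igkv1-110 and Igkv6-23 on each of 34 arrays in the 12 sorted groups. Points are arrays, bars are group means, and the dotted line is the highest background limit of any array. Igkc, Ighm and Iglv1 stand above that line on every array, and Igkv1-110 and Igkv6-23 lie near it in Ins2-positive, Ins2-negative and Tspan8-positive cells.

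Pdpn-positive cells had less immunoglobulin RNA than Pdpn-negative cells. Of the 21 genes, 14 were lower and 0 were higher at an adjusted p below 0.05 (limma with Benjamini-Hochberg adjustment over all genes), while 20.0% of all genes tested were lower and 18.4% were higher. At an unadjusted p below 0.05, 15 were lower and 0 were higher. The arrays of 7 genes did not overlap between the groups, against 53.3% of all genes. The median log2 difference of the 21 genes was -0.94, against -0.004 over all genes.

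The kappa constant region Igkc measured 10.12, 9.28 and 12.14 on the Pdpn-positive arrays, against 12.88, 12.59 and 14.14 on the Pdpn-negative arrays. All Pdpn-negative arrays were above all Pdpn-positive arrays, and the third array of each group was the brightest. The difference was -2.69 ± 0.73 (SE), a 6.45-fold decrease (95% confidence interval 2.30 to 18.1, adjusted p = 0.0033).

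The mu constant region Ighm measured 7.30, 6.75 and 10.52 on the Pdpn-positive arrays, against 11.11, 9.59 and 12.08 on the Pdpn-negative arrays. The groups overlapped through Pdpn-positive 3, which was above Pdpn-negative 2. Ighm fell by 2.73 on the log2 scale (SE 0.78, adjusted p = 0.0053), and the call ended when Pdpn-positive 2 was left out (adjusted p = 0.066). Within each replicate number the Pdpn-positive array was lower, by -3.80, -2.83 and -1.55.

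Iglv1 measured 8.52, 11.16 and 9.03 on the Pdpn-positive arrays, against 11.14, 11.32 and 12.16 on the Pdpn-negative arrays. Pdpn-positive 2 lay among the Pdpn-negative arrays. The array with the highest Iglv1 of its group was thus the one with the lowest Igkc and the lowest Ighm. Iglv1 was lower by -1.97 ± 0.43 (SE, adjusted p = 0.00033).

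Several kappa V segments were bright on all 3 Pdpn-negative arrays. Igkv1-110 measured 4.83, 4.22 and 5.63 on the Pdpn-positive arrays, against 9.55, 8.61 and 11.05 on the Pdpn-negative arrays, a 28.8-fold decrease (95% confidence interval 8.62 to 95.9, adjusted p = 2.1e-05). Igkv9-124 measured 4.26, 4.19 and 5.03 on the Pdpn-positive arrays, against 7.66, 7.93 and 8.38 on the Pdpn-negative arrays (log2 difference -3.50 ± 0.73, adjusted p = 0.00022). Igkv6-23 measured 4.43, 4.68 and 4.21 on the Pdpn-positive arrays, against 8.09, 6.77 and 9.06 on the Pdpn-negative arrays (log2 difference -3.53 ± 0.88, adjusted p = 0.0014). None of these 3 segments overlapped between the groups, and no Pdpn-positive array gave any of them more than 5.63. Igkv1-110 was detected on 2 of the 3 Pdpn-positive arrays and Igkv9-124 and Igkv6-23 on 1 each, so their folds are set against values mostly at background. Igkv4-62 also did not overlap, with 4.28, 4.72 and 6.05 on the Pdpn-positive arrays, against 7.30, 7.26 and 8.90 on the Pdpn-negative arrays (log2 difference -2.81 ± 0.66, adjusted p = 0.00084).

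Other members were low in both groups or bright on a single array. Ighg1 was 4.37 ± 0.17 in Pdpn-positive cells and 5.28 ± 0.41 in Pdpn-negative cells (SD, n = 3 each), a difference of -0.91 (adjusted p = 0.00044). Igkv10-95 was not detected on any Pdpn-positive array and was at least 1.66-fold lower there (adjusted p = 0.0049). Igkv3-2 and Igkv3-4 were not detected on any Pdpn-positive array either, and their calls rested on Pdpn-negative 3, which gave 8.22 and 7.84, while Pdpn-negative 1 and 2 gave 4.19 and 5.32 for Igkv3-2 and 4.55 and 4.37 for Igkv3-4. The bounds were at least 2.85-fold lower for Igkv3-2 (adjusted p = 0.0050) and at least 2.29-fold lower for Igkv3-4 (adjusted p = 0.0089). Ighv7-3, Ighv8-9 and Igkv19-93 were lower as well, with adjusted p of 0.021, 0.046 and 0.039.

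Without Pdpn-negative 3, 9 genes were lower in place of 14: Igkv19-93, Igkv3-2, Igkv3-4, Ighv7-3 and Ighv8-9 were no longer called (adjusted p 0.18 to 0.71). With the Pdpn sort fitted on its own, 9 were lower as well. The heavy chain segments Ighv7-3 and Ighv8-9 had passed the detection filter through the Pdpn-negative arrays alone, and of the 19 members that passed outside this sort 12 were lower. Ighv1-62-3, a heavy chain V segment, stood apart with 4.26, 6.37 and 6.20 on the Pdpn-positive arrays, against 4.64, 5.19 and 5.45 on the Pdpn-negative arrays, and was called higher when Pdpn-positive 1 was left out (log2 difference 1.19, adjusted p = 0.0038) but not with it. The 7 members not called also included Igkv4-86, Igkv8-16, Igkv13-84, Igkv4-58, Ighv5-9-1 and Jchain.

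The B cell list, genes of B cell identity and signalling, had 14 of 18 genes measured. In the Pdpn sort 9 of the 14 were lower and 1 was higher in Pdpn-positive cells, against 20.0% and 18.4% of all genes. The mean level of the B cell list was 6.05 to 6.45 on the Pdpn-positive arrays, against 6.92 to 7.05 on the Pdpn-negative arrays. The pan-haematopoietic list, genes of all white blood cells, lay between 8.57 and 9.16 on the Pdpn-positive arrays, against 8.88 and 9.10 on the Pdpn-negative arrays, and the thymocyte list lay between 6.26 and 6.41, against 6.18 and 6.63. Of the B cell markers, Ms4a1 (CD20) was detected on 0 Pdpn-positive and 2 Pdpn-negative arrays, Cd79a had no annotated probe, and Pax5 and Bank1 did not pass the detection filter. What part B cell RNA had in these differences was not tested.

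**Figure D2:**
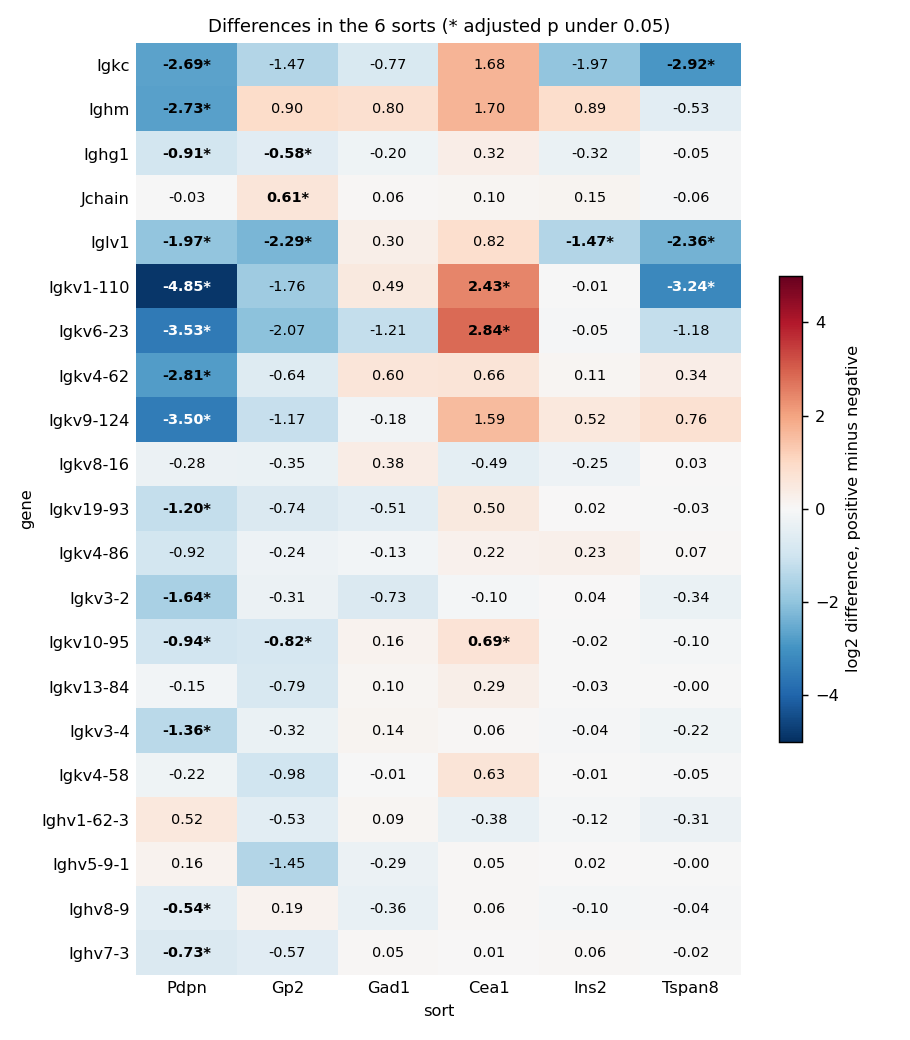
Log2 difference, positive minus negative cells, for the 21 measured genes (rows) in the 6 sorts (columns). Red is higher and blue is lower in positive cells, and an asterisk marks an adjusted p below 0.05. The Pdpn column holds 14 of the 21 decreases called, where 20.0% of all genes were lower. The Cea1 column holds 3 of the 4 increases, a share of the 21 genes near the 13.9% of all genes higher there.

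Tspan8-positive cells had lower kappa and lambda signal than Tspan8-negative cells, with no call for mu. Of the 21 genes 3 were lower and 0 were higher (limma), a share below the 25.0% of all genes that were lower and the 19.4% that were higher. The same 3 and 0 passed an unadjusted p below 0.05. The arrays of 6 genes did not overlap, against 57.1% of all genes. Igkc measured 9.29, 7.49 and 8.64 on the Tspan8-positive arrays, against 11.31, 11.06 and 11.80 on the Tspan8-negative arrays. Iglv1 measured 8.33, 8.24 and 8.04 on the Tspan8-positive arrays, against 11.07, 10.43 and 10.17 on the Tspan8-negative arrays. The groups were separate for both genes, and the differences were -2.92 ± 0.73 for Igkc (7.55-fold lower, adjusted p = 0.0012) and -2.36 ± 0.43 for Iglv1 (5.12-fold lower, adjusted p = 2.2e-05).

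Igkv1-110 was not detected on any Tspan8-positive array (4.18, 4.15 and 4.18), against 7.91, 6.13 and 8.20 on the Tspan8-negative arrays. It was at least 8.18-fold lower in Tspan8-positive cells (adjusted p = 0.0020). Ighm measured 9.58, 7.60 and 7.66 on the Tspan8-positive arrays, against 8.85, 8.45 and 9.12 on the Tspan8-negative arrays, and the highest value of all 6 was Tspan8-positive 1. Its difference of -0.53 had a 95% confidence interval of -2.12 to 1.07 (adjusted p = 0.65). The same array held the one bright Igkv9-124 value of the sort, 7.25, against 4.12 to 4.81 on the other arrays of the sort. The 3 calls passed the threshold without each array of the sort in turn.

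In the Tspan8 sort 8 of the 14 B cell genes were lower and 1 was higher, against 25.0% and 19.4% of all genes. The mean of the B cell list was 6.09 to 6.22 on the Tspan8-positive arrays, against 6.86 to 6.95 on the Tspan8-negative arrays. The pan-haematopoietic list was 8.44 to 8.63 on the Tspan8-positive arrays, against 8.56 to 8.76 on the Tspan8-negative arrays, and the thymocyte list 5.72 to 6.06, against 5.97 to 6.32. Ms4a1 was detected on 1 Tspan8-positive and 0 Tspan8-negative arrays. The part of these cells in the 3 differences was not tested.

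Cea1-positive cells had more of some kappa V segments than Cea1-negative cells. Of the 21 genes 3 were higher and 0 were lower. That share of higher genes was near the 13.9% of all genes, and 16.4% of all genes were lower. At an unadjusted p below 0.05, 6 were higher and 0 were lower (limma). Igkv6-23 measured 8.11, 8.24 and 6.64 on the Cea1-positive arrays, against 4.20, 5.92 and 4.34 on the Cea1-negative arrays. Igkv1-110 measured 7.92, 7.55 and 8.10 on the Cea1-positive arrays, against 5.12, 5.52 and 5.65 on the Cea1-negative arrays. Igkv6-23 was detected on 1 of the 3 Cea1-negative arrays and Igkv1-110 on all 3. Neither segment overlapped between the groups, and the differences were 2.84 ± 0.88 for Igkv6-23 (7.18-fold, adjusted p = 0.012) and 2.43 ± 0.85 for Igkv1-110 (5.37-fold, adjusted p = 0.029). Igkv10-95 was not detected on any Cea1-negative array, measured 5.82, 4.71 and 4.19 on the Cea1-positive arrays, and was at least 1.44-fold higher (adjusted p = 0.049). Its arrays overlapped between the groups.

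The constant regions moved the same way in the Cea1 sort without passing the test. Igkc measured 12.56, 12.05 and 11.55 on the Cea1-positive arrays, against 10.58, 10.42 and 10.10 on the Cea1-negative arrays (log2 difference 1.68 ± 0.73, adjusted p = 0.081). Ighm measured 9.98, 9.36 and 9.72 on the Cea1-positive arrays, against 8.35, 8.31 and 7.29 on the Cea1-negative arrays (log2 difference 1.70 ± 0.78, adjusted p = 0.10). All Cea1-positive arrays were above all Cea1-negative arrays for both genes and for Iglv1 (log2 difference 0.82 ± 0.43, adjusted p = 0.15). Across the genes tested in this sort, 38.8% did not overlap between the groups, and among the 21 immunoglobulin genes 8 did not, a similar share. With the sort fitted on its own, where the spread is that of its 6 arrays only, Igkc (adjusted p = 0.00062), Ighm (adjusted p = 0.0016) and Iglv1 (adjusted p = 0.0025) were called higher. In the authors' normalized values 0 of the 21 were higher.

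Leaving out an array of the Cea1 sort ended calls while the differences of Igkv1-110 and Igkv6-23 stayed close in size. No gene was higher without Cea1-negative 1, where Igkv1-110 was 2.27 (adjusted p = 0.086) and Igkv6-23 was 2.53 (adjusted p = 0.058), or without Cea1-negative 3, where they were 2.54 (adjusted p = 0.052) and 2.61 (adjusted p = 0.051). Without Cea1-negative 2 or without Cea1-positive 1, 1 gene was higher, and Igkv10-95 was 0.23 without Cea1-positive 1 (adjusted p = 0.55). Over all genes in this sort 13.9% were higher and 16.4% were lower. The B cell list had 3 of 14 genes higher and 3 lower. Its mean was 6.83 to 7.01 on the Cea1-positive arrays, against 6.76 to 6.96 on the Cea1-negative arrays. The pan-haematopoietic list had 3 of 8 genes higher and 1 lower. Its mean was 9.21 to 9.45 on the Cea1-positive arrays, against 8.22 to 8.34 on the Cea1-negative arrays. Ms4a1 was detected on 1 Cea1-positive and 1 Cea1-negative array. The part of other cells in the increases was not tested.

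Gp2-positive cells had lower lambda signal than Gp2-negative cells, while Igkc and Ighm did not pass the test in the main fit. Of the 21 genes 3 were lower and 1 was higher, against 22.0% lower and 18.0% higher among all genes, and the arrays of 4 did not overlap, against 56.1%. Iglv1 measured 7.78 and 8.21 on the Gp2-positive arrays, the lowest group mean of the 12, against 11.29, 9.95 and 9.63 on the Gp2-negative arrays. The groups did not overlap, and Iglv1 was lower by -2.29 ± 0.48 (4.90-fold, adjusted p = 0.00020). Igkv10-95 was not detected on either Gp2-positive array and was at least 1.53-fold lower (adjusted p = 0.026), and Ighg1 was 4.48 ± 0.41 in Gp2-positive cells (SD, n = 2) and 5.06 ± 0.27 in Gp2-negative cells (SD, n = 3; adjusted p = 0.041).

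The 2 Gp2-positive arrays differed from each other in kappa signal. Igkc measured 12.97 and 9.14 on them, against 13.85, 12.40 and 11.34 on the Gp2-negative arrays, and Igkv1-110 measured 9.40 and 4.29, against 10.34, 8.17 and 7.31. The Igkc difference was -1.47 ± 0.82 (adjusted p = 0.16). Without Gp2-positive 1 it was -3.38, and without Gp2-positive 2 it was 0.44. Within replicate numbers 1 and 2 the Gp2-positive array was lower in Igkc, by -0.88 and -3.26. With the replicate number as a block, limma gave -2.07 for Igkc (adjusted p = 0.0021). The 2 pairs had r of 0.238 and 0.109, too few to show that the numbers pair the arrays. Ighm measured 12.25 and 10.70 on the Gp2-positive arrays, against 12.22, 10.67 and 8.83 on the Gp2-negative arrays. Its Gp2-positive mean of 11.47 was the highest of the 12 groups, but the groups overlapped (log2 difference 0.90 ± 0.88, adjusted p = 0.46).

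Jchain was the 1 gene higher in Gp2-positive cells. It measured 4.59 and 5.28 on the Gp2-positive arrays, against 4.16, 4.24 and 4.58 on the Gp2-negative arrays (log2 difference 0.61 ± 0.18, adjusted p = 0.0056). Both Gp2-positive arrays were above the Gp2-negative ones, the lower of them by little, and the call ended without Gp2-positive 2 (log2 difference 0.26, adjusted p = 0.36) and with the sort fitted on its own (adjusted p = 0.086). Jchain had passed the detection filter in Gp2-positive cells alone. Ighv5-9-1, Igkv13-84 and Igkv4-58, called lower in some refits, had passed it in Gp2-negative cells alone. Of the 17 members that passed outside this sort, 3 were lower and 0 were higher in the main fit. The count of lower genes was 6 under median scaling, 5 without Gp2-negative 2, 6 without Gp2-negative 3 and 1 in the authors' normalized values.

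Thymocyte transcripts moved with this sort. All 11 measured genes of the 14 on the thymocyte list were higher in Gp2-positive cells, against 18.0% of all genes. The mean of the thymocyte list was 9.51 to 9.95 on the Gp2-positive arrays, against 5.89 to 7.44 on the Gp2-negative arrays. Rag1, which cuts antigen receptor genes for recombination, averaged 11.04 ± 0.02 in Gp2-positive cells (SD, n = 2) and 6.12 ± 0.93 in Gp2-negative cells (SD, n = 3). The B cell list moved the other way, with 7 of 14 genes lower and 2 higher, against 22.0% and 18.0% of all genes. Its mean was 6.24 to 6.37 on the Gp2-positive arrays, against 6.96 to 7.00 on the Gp2-negative arrays. Ms4a1 was detected on 0 Gp2-positive and 3 Gp2-negative arrays, and what part these cells had in the immunoglobulin values was not tested.

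Ins2 reporter-positive cells had the lowest kappa signal of the 12 groups. Igkc measured 6.62, 7.16 and 8.81 on the Ins2-positive arrays, against 9.97 and 9.02 on the Ins2-negative arrays. The groups did not overlap, but the difference of -1.97 ± 0.82 did not pass the threshold (adjusted p = 0.059). It passed under median scaling (-2.60, adjusted p = 0.0057), in the authors' normalized values (-1.68, adjusted p = 0.044), with the sort fitted on its own (adjusted p = 0.030) and without Ins2-positive 3 (-2.61, adjusted p = 0.020). The fit on the authors' values also held Ins2-negative 2, which the main fit lacked, so the arrays differed as well as the normalization. Ighm did not follow Igkc: it measured 8.35, 8.28 and 8.52 on the Ins2-positive arrays, against 7.68 and 7.30 on the Ins2-negative arrays (log2 difference 0.89 ± 0.88, adjusted p = 0.48), and it was called higher with the sort fitted on its own (adjusted p = 0.0081).

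Iglv1 was the 1 gene called in the Ins2 sort, and it was lower. It measured 8.46, 8.37 and 7.86 on the Ins2-positive arrays, against 10.49 and 8.91 on the Ins2-negative arrays (log2 difference -1.47 ± 0.48, adjusted p = 0.015). The groups were separate, and the 2 Ins2-negative arrays differed by more than the lower of them differed from the Ins2-positive arrays. The call ended without Ins2-negative 1 (-0.69, adjusted p = 0.43) and without Ins2-positive 3 (-1.29, adjusted p = 0.060). Of all genes in this sort 18.5% were lower and 17.3% were higher, and at an unadjusted p below 0.05, 2 of the 21 were lower and 0 were higher (limma). The arrays of 5 did not overlap, against 50.6% of all genes. Igkv1-110 and Igkv6-23 lay between 4.16 and 4.40 on all 5 arrays. The B cell list had 4 genes higher and 4 lower (0 higher under median scaling, 1 without Ins2-negative 3, 2 without Ins2-positive 2, and 2 lower without Ins2-negative 1), with means of 6.71 to 6.79 on the Ins2-positive arrays, against 6.80 to 6.98 on the Ins2-negative arrays, and its part in the Iglv1 difference was not tested.

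No immunoglobulin gene was called in the Gad1 reporter sort. With limma 0 were higher and 0 were lower, and 0 passed an unadjusted p below 0.05 in either direction, while 20.1% of all genes were higher and 19.7% were lower. The arrays of 1 gene did not overlap, against 45.4% of all genes. Igkc measured 11.68, 9.22 and 9.84 on the Gad1-positive arrays, against 12.01, 10.57 and 10.44 on the Gad1-negative arrays, a difference of -0.77 with a 95% confidence interval of -2.25 to 0.72. Ighm measured 10.00, 7.95 and 8.35 on the Gad1-positive arrays, against 9.96, 6.90 and 7.03 on the Gad1-negative arrays (0.80, interval -0.79 to 2.40). The first array of each group was the brightest for both genes, and the groups overlapped. Iglv1 was 10.18 ± 0.53 in Gad1-positive cells and 9.88 ± 0.27 in Gad1-negative cells (SD, n = 3 each; difference 0.30, interval -0.57 to 1.17). These intervals leave room for changes of several fold in kappa and mu.

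The differences were compared between the sorts with 1 test per gene. By limma's F test of the contrasts among the 6 differences, 9 of the 21 genes differed between sorts, against 63.2% of all genes. Iglv1 had the smallest adjusted p (2.2e-05), followed by Igkv1-110 (3.3e-05), Igkv9-124 (0.0011), Igkv6-23 (0.0012) and Igkc (0.0025). Between pairs of sorts, the Igkc difference was 4.37 lower in the Pdpn sort than in the Cea1 sort (-4.37 ± 1.03, adjusted p = 0.0012), and that of Igkv1-110 was lower by -7.27 ± 1.21 (adjusted p = 1.2e-05). The Cea1 and Tspan8 sorts also differed, by 4.60 ± 1.03 for Igkc (adjusted p = 0.0016) and by 3.18 ± 0.61 for Iglv1 (adjusted p = 0.00026). Ighm set the Pdpn sort apart from the Cea1, Gad1, Gp2 and Ins2 sorts (adjusted p 0.0021, 0.0088, 0.022 and 0.015).

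The V segments were patchy within groups. Of the 16 kappa and heavy chain V segments, between 9 and 16 were detected on a Pdpn-negative array. Between 8 and 16 were detected on a Gp2-negative array. Only 2 to 5 were detected on each Ins2-positive and Tspan8-positive array and on Ins2-negative 1 and 3, and 2 or 3 on each Cea1-negative array. Ins2-negative 2 was left out of these counts. By its detection p-values, more of the 16 stood above background there than on Ins2-negative 1 or 3. Pdpn-negative 3 and Gp2-negative 1 detected all 16. Counting values above 6 on the log2 scale, 28 of 192 combinations of segment and group had some arrays above and others not, 8 had all their arrays above, and 156 had none. Igkv4-58 gave 6.82 on Gp2-negative 3 and 6.21 on Cea1-positive 2 and at most 4.86 on any other array. Ighv5-9-1 gave 7.39 on Pdpn-positive 3 and 6.98 on Pdpn-negative 3, and 4.08 to 4.17 on the other arrays of that sort.

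Other segments were also carried by 1 or 2 arrays. Igkv9-124 was 8.02 on Cea1-positive 1 and 4.59 and 4.94 on the other Cea1-positive arrays. Igkv6-23 was 10.32 on Gp2-negative 1 and 4.21 on Gp2-negative 2, and 8.35 on Gad1-negative 1 and 4.50 and 4.25 on the other Gad1-negative arrays. Igkv8-16 was detected at least once in all 12 groups, and its group means spanned only 4.27 to 5.58. Its highest array was Gp2-negative 1 at 7.36. Among the 6 genes that did not pass the detection filter, Igkv14-100 was 7.67 on Gp2-negative 1 and was detected on 3 arrays, Ighv5-16 was 6.32 on Pdpn-negative 3 and was detected on 5, and Ighv1-49, Ighv1-84, Ighv7-1 and Igkv2-116 never exceeded 5.04.

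**Figure D3:**
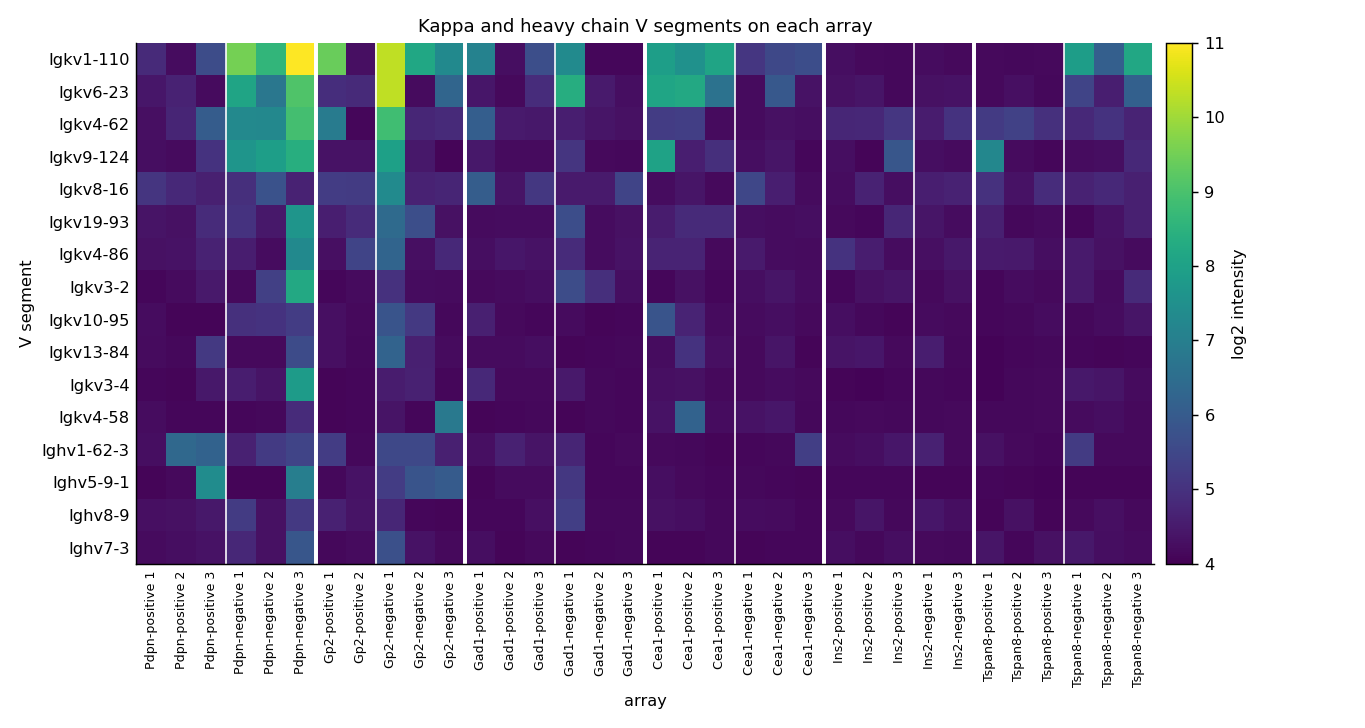
Log2 intensity of 16 kappa and heavy chain V segments (rows) on 34 arrays (columns), with thin white lines between the groups of a sort and thick lines between sorts. Most cells lie near background, and bright cells occur on Pdpn-negative and Gp2-negative arrays, on Cea1-positive arrays, and on single arrays of other groups, such as Igkv9-124 on Tspan8-positive 1.

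This spread between arrays of 1 group set the immunoglobulin genes apart in size. Their pooled within-group SD had a median of 0.638 on the log2 scale, against 0.231 over all genes, and 17 of the 21 exceeded 0.371, the 95th percentile of all genes. Igkv6-23 (1.31), Igkv1-110 (1.27), Ighm (1.18) and Igkc (1.10) had the highest values. Jchain (0.187), Ighg1 (0.253), Ighv8-9 (0.288) and Ighv7-3 (0.356) were below that percentile.

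A second probe was available for 7 of the genes and gave a check on the signal. Over 34 arrays the 2 probes of a gene correlated at 0.994 for Ighm, 0.989 for Iglv1, 0.966 for Igkv1-110, 0.945 for Igkv19-93 and 0.899 for Ighv1-62-3. They did not for Ighv7-3 (-0.048) and Ighv8-9 (0.052), whose second probes were detected on 3 and 1 arrays. All 9 calls of a gene with another probe past the filter were also made, in the same direction, by that probe. The sizes differed for Igkv1-110, whose second probe gave -3.40 in the Pdpn sort (adjusted p = 1.4e-05) and -1.93 in the Tspan8 sort (adjusted p = 0.0079), against -4.85 and -3.24 for the probe shown. The second probe of Ighv1-62-3 was lower in the Gp2 sort (-1.28, adjusted p = 0.015), where the probe shown was -0.53 and not called. The values for Ighv7-3 and Ighv8-9 therefore rest on 1 probe each, and the name Ighv7-3 comes from an older locus symbol.

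Igkc and Ighm varied together between arrays of the same group. Each array was set against the mean of its own group, 16 relations were computed over the 34 arrays, and p-values came from 100000 permutations of arrays within groups. These permutations treat the groups of a sort as independent, although same-numbered arrays of the Pdpn sort deviated together. The 2 same-numbered pairs of the Gp2 sort had r of 0.238 and 0.109. Every Cea1 and Tspan8 array was closest to the array of its own number. The p-values do not allow for any of this. Igkc and Ighm had a Pearson r of 0.822 (permutation p = 1e-05, the smallest these permutations can give; adjusted p = 0.00016) and a Spearman rho of 0.861. Without the 2 arrays of the most extreme Igkc deviation, Gp2-positive 1 and Pdpn-positive 3, r was 0.812. The deviations of the 2 Gp2-positive arrays mirror each other and Gp2-positive 2 stayed in, so this does not remove the weight of that group. Igkc and Igkv1-110 had an r of 0.806 (permutation p = 6e-05, adjusted p = 0.00044; rho 0.721; 0.776 without the 2 farthest arrays). Iglv1 did not follow either constant region, with an r of 0.0968 to Igkc (permutation p = 0.73; rho 0.169) and 0.183 to Ighm (permutation p = 0.59; rho 0.247).

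Within groups Igkc rose with white blood cell transcripts and not with the B cell list. Its r was 0.740 to the mean of the pan-haematopoietic list (permutation p = 0.00011, adjusted p = 0.00044; rho 0.790; 0.697 without the 2 farthest arrays) and 0.641 to the thymocyte list (permutation p = 0.00011, adjusted p = 0.00044; rho 0.708; 0.666 without them). For Ighm r was 0.754 to the pan-haematopoietic list (permutation p = 0.00020, adjusted p = 0.00064; rho 0.760; 0.728 without its 2 farthest arrays) and 0.570 to the thymocyte list (permutation p = 0.0062, adjusted p = 0.016; rho 0.553; 0.598 without them). To the B cell list r was -0.224 for Igkc (permutation p = 0.38; rho -0.173), -0.278 for Ighm (permutation p = 0.37; rho -0.210) and -0.0291 for Iglv1 (permutation p = 0.95; rho 0.211). The dendritic cell and macrophage list passed for Igkc (r = 0.441, permutation p = 0.014, adjusted p = 0.033; rho 0.479; 0.450 without the 2 farthest) and not for Ighm (r = 0.350, permutation p = 0.15; rho 0.275). Within groups the B cell list varied little, from -0.14 to 0.25 around the group mean, against -0.59 to 0.71 for the pan-haematopoietic list.

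**Figure D4:**
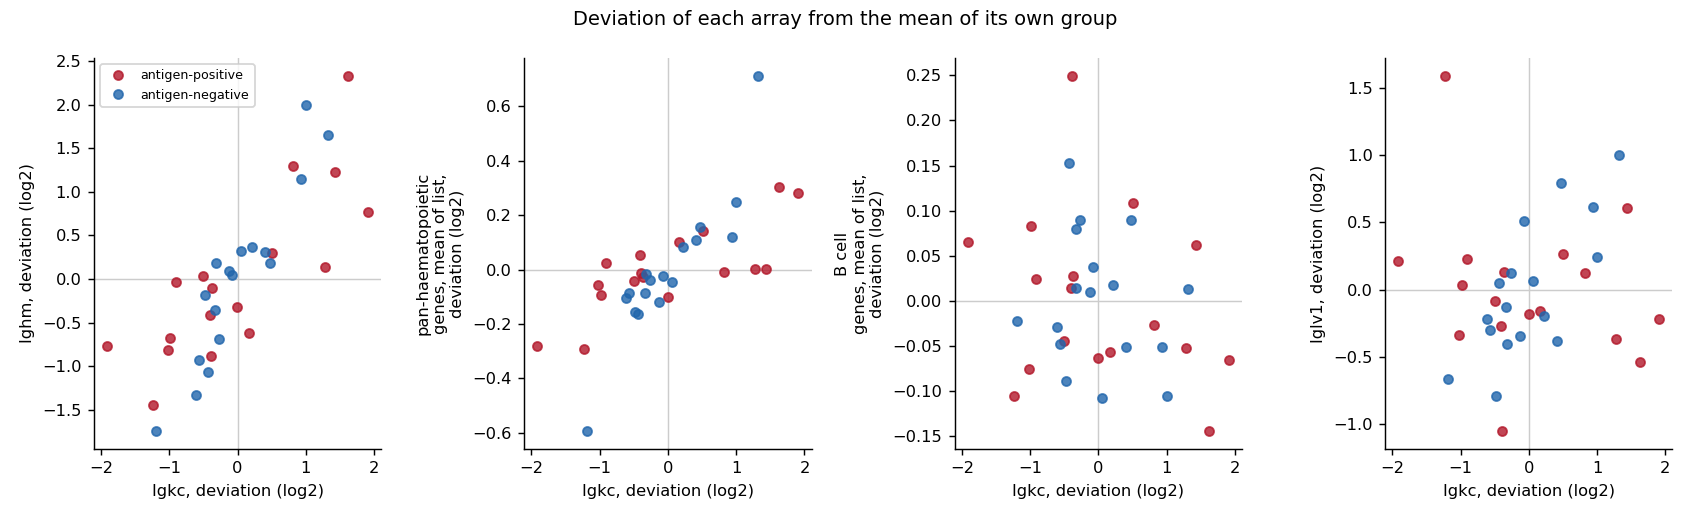
Each point is 1 of 34 arrays, plotted as its log2 deviation from the mean of its own group, with Igkc on the x axis and, from left to right, Ighm, the mean of the pan-haematopoietic list, the mean of the B cell list and Iglv1 on the y axis. Points rise from left to right for Ighm (r = 0.822) and the pan-haematopoietic list (r = 0.740) and show no trend for the B cell list (r = -0.224) or Iglv1 (r = 0.0968).

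The B cell list was not uniform across sorts. Cd79b, the signalling partner of surface immunoglobulin, was lower in Pdpn-positive cells (6.96 ± 0.22, against 8.79 ± 0.19 in Pdpn-negative cells, SD, n = 3 each; log2 difference -1.83, adjusted p = 6.1e-12) and higher in Cea1-positive cells (log2 difference 1.13, adjusted p = 2.4e-07). Its difference was -0.22 in the Tspan8 sort (adjusted p = 0.25), where Igkc was lower, and -0.15 in the Gp2 sort (adjusted p = 0.52). Cd79b was also higher in Gad1-positive cells (0.60, adjusted p = 0.0014) and Ins2-positive cells (0.93, adjusted p = 2.6e-05), where no kappa call was made. Cd72, a B cell co-receptor, was lower in all 6 positive groups, by -0.64 to -2.56. Fcer2a (CD23, a low-affinity IgE receptor) was lower in the Pdpn (-1.12), Gp2 (-1.82) and Tspan8 (-1.97) sorts and higher in the Gad1 sort (0.92). Ralgps2, a guanine nucleotide exchange factor, was higher in all sorts but the Gad1 sort, by 0.57 to 2.31, and was 0.17 there (adjusted p = 0.44).

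Surrogate light chain genes, which stand in for kappa and lambda in B cell precursors, gave 3 measured genes. Igll1 was lower in all 6 positive groups, by -1.09 (Cea1) to -2.68 (Tspan8), and it measured 6.09 ± 0.07 in Pdpn-positive cells and 7.64 ± 0.21 in Pdpn-negative cells (SD, n = 3 each). Vpreb3 was lower in the Pdpn (-0.91) and Gp2 (-1.31) sorts and higher in the Gad1 (1.13), Cea1 (0.59) and Ins2 (0.91) sorts. Vpreb1 was lower in the Gad1 (-0.57) and Cea1 (-0.82) sorts, was not detected on any Cea1-positive array, and stayed between 4.17 and 5.94 on all arrays.

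The plasma cell and secretory list had all 16 genes measured. In the Pdpn sort 6 were lower and 2 higher, in the Gp2 sort 8 lower and 2 higher, in the Gad1 sort 1 lower and 5 higher, in the Cea1 sort 3 lower and 5 higher, in the Ins2 sort 0 lower and 2 higher, and in the Tspan8 sort 7 lower and 3 higher. Over all genes the shares were 20.0% lower and 18.4% higher in the Pdpn sort, 22.0% and 18.0% in the Gp2 sort, 19.7% and 20.1% in the Gad1 sort, 16.4% and 13.9% in the Cea1 sort, 18.5% and 17.3% in the Ins2 sort, and 25.0% and 19.4% in the Tspan8 sort. Its medians, -0.41 in the Pdpn sort, -0.53 in the Gp2 sort, 0.23 in the Gad1 sort, -0.14 in the Cea1 sort, 0.06 in the Ins2 sort and -0.49 in the Tspan8 sort, stood beside medians of -0.04 to -0.004 over all genes. Mzb1, a chaperone that assists IgM assembly, measured 7.96 ± 0.54 in Cea1-positive cells and 4.62 ± 0.18 in Cea1-negative cells (SD, n = 3 each), a 10.1-fold increase (adjusted p = 1.8e-07; named after its value was seen), and it was not called in any other sort. Tnfrsf17 (BCMA, a survival receptor of plasma cells) was lower in the Pdpn (-2.38), Gp2 (-2.97), Cea1 (-1.04) and Tspan8 (-2.51) sorts and higher in the Gad1 sort (1.43). Sdc1 (syndecan-1), which plasma cells and epithelial cells both carry, was higher in 5 sorts, by 1.02 to 3.33, and was 0.51 in the Gp2 sort (adjusted p = 0.21). Irf4, a transcription factor of plasma cells and mTECs, was lower in the Pdpn, Gp2, Cea1 and Tspan8 sorts, by -0.67 to -2.16. Creld2, a gene of the endoplasmic reticulum, was lower in the same 4 sorts, by -0.51 to -1.57, and higher in the Gad1 sort (0.50).

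Receptors that bind immunoglobulin were measured for all 10 genes of their list. The polymeric immunoglobulin receptor Pigr, an epithelial gene, was higher in Gad1-positive (2.62), Ins2-positive (2.48), Tspan8-positive (2.27) and Cea1-positive cells (1.92) and lower in Gp2-positive cells (-0.66, adjusted p = 0.024), and its difference in the Pdpn sort was 0.11 (adjusted p = 0.75). It measured 9.48 ± 0.32 in Tspan8-positive cells and 7.21 ± 0.28 in Tspan8-negative cells (SD, n = 3 each), in the sort where Igkc and Iglv1 were lower. Fcer1g, the shared signalling chain of Fc receptors, was lower in the Pdpn (-1.16), Gp2 (-2.44) and Tspan8 (-2.20) sorts and higher in the Gad1 (1.79) and Ins2 (0.75) sorts. Fcer1a, the IgE-binding chain of the high-affinity receptor, was lower in the Pdpn (-1.21) and Gp2 (-2.44) sorts and higher in the Gad1 (2.23) and Ins2 (0.89) sorts. Fcgr3, a low-affinity IgG receptor, was higher in the Pdpn (0.76), Cea1 (1.85), Ins2 (0.94) and Tspan8 (1.16) sorts, and in the Gp2 sort, where no Gp2-positive array detected it, it was lower (adjusted p = 0.049). Of the 10 receptor genes, 6 were higher and 0 lower in the Gad1 sort, 5 and 0 in both the Cea1 and Ins2 sorts, and 0 and 5 in the Gp2 sort, with 3 and 3 in the Pdpn sort and 2 and 2 in the Tspan8 sort. Over all genes 20.1% were higher in the Gad1 sort, 13.9% in the Cea1 sort and 17.3% in the Ins2 sort, and 22.0% were lower in the Gp2 sort. The 3 and 3 of the Pdpn sort stood beside 18.4% higher and 20.0% lower. The 2 and 2 of the Tspan8 sort stood beside 19.4% higher and 25.0% lower.

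**Figure D5:**
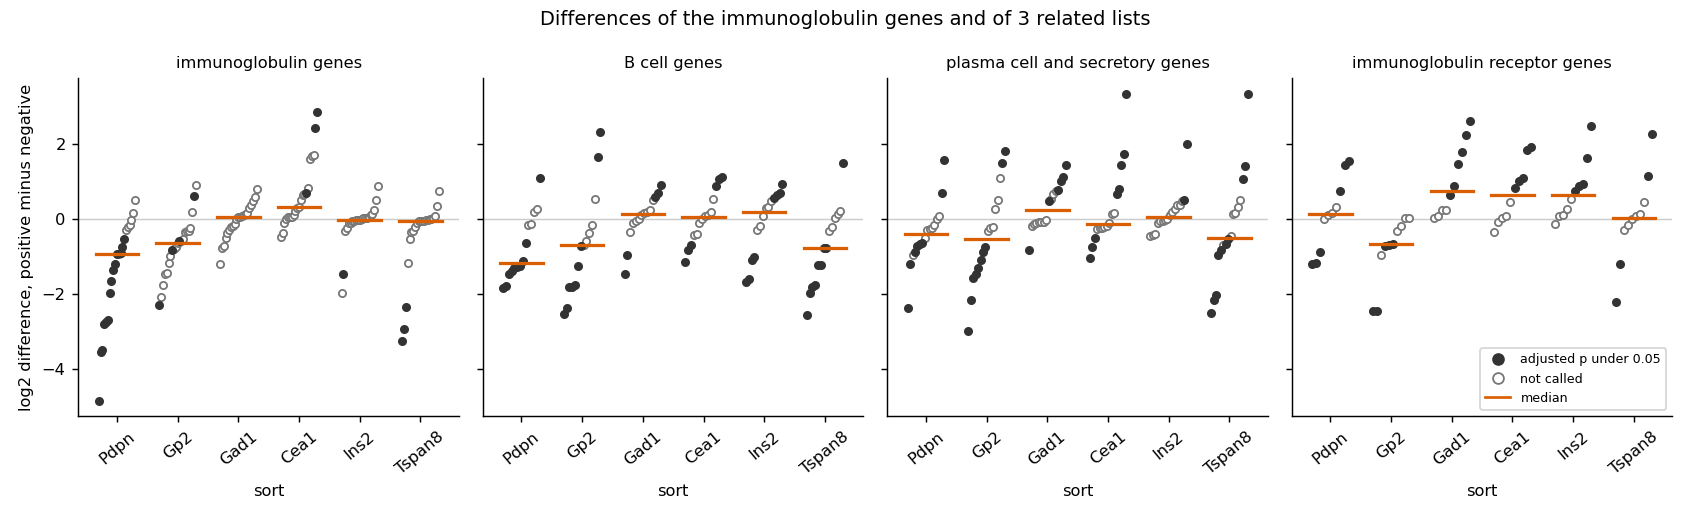
Log2 differences, positive minus negative cells, in the 6 sorts for the 21 immunoglobulin genes, 14 B cell genes, 16 plasma cell and secretory genes and 10 immunoglobulin receptor genes. Each point is a gene, filled where the adjusted p was below 0.05, and the bar is the median of the list. The medians of the immunoglobulin and B cell genes are both below 0 in the Pdpn sort (-0.94 and -1.18) and the Gp2 sort (-0.64 and -0.70), while in the Tspan8 sort the immunoglobulin median of -0.05 lies beside that of all genes (-0.03) and the B cell median is -0.78.

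Over the 12 group means, the genes outside the family whose pattern was most like that of Igkc were Hyou1, a chaperone of the endoplasmic reticulum (r = 0.884), Rbm39 (0.847), Ssbp1 (0.843), Klrd1 (0.825), Cplx2 (0.800), Gyg (0.795), Cdkal1 (0.793) and Ly86 (0.775). Within the family Igkv1-110 (0.905) and Igkv6-23 (0.844) were closest, ahead of Igkv19-93 (0.760), Iglv1 (0.751) and Ighm (0.646). These are descriptions over 12 points that are the positive and negative groups of 6 sorts.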

How the data were processed

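Total RNA was labelled and hybridised, per the labels. The table the authors deposited gives, per its file headers, a bead intensity and a detection p-value for each probe and sample, and a second deposited table gives the authors' normalized intensity, whose method is not given in the sources used here. The 46089 probes were matched between the tables by their values. The intensity column of Ins2-negative 2 repeated the detection p-values of Ins2-positive 1 for all 46089 probes. That array was therefore left out of the main fit, and this 1 per-sample column was unused. Its normalized intensities entered only the refit on the authors' normalized values.

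Intensities were corrected and quantile normalized on the log2 scale with neqc in limma 3.58.1 (R 4.3.3), which uses detection p-values where control probes are missing and adds an offset of 16. The offset makes folds of dim genes too small. Probes detected at p below 0.05 on 2 arrays of a group were kept (34083). A gene was shown by its brightest kept probe. limma was fitted over 12 group means with a trended prior and 22 residual degrees of freedom. The prior draws the spread of each gene toward that of genes of like level. A gene more variable than those, such as Igkc, has a smaller SE than its own arrays would give. A trial of the fit on simulated data drew independent errors, without shared deviations of same-numbered arrays or single bright arrays. It cannot show how the fit behaves with those. Symbols were updated through gene identifiers, accessions or older symbols to the names of GRCm38.p6. Of the 27 family members, 19 were named by gene identifier and 8 by an older symbol, among them Ighv7-1 and Ighv7-3, whose older symbols are broad. "At least" folds compare the brighter mean with the higher of an array's lowest detected signal and the probe's own value.

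Named genes were the constant regions and Jchain, the 5 brightest members of each locus, the 3 strongest called changes per sort without overlap, the members with the widest and narrowest ranges of group means among those detected in every group, up to 4 genes per list by adjusted p, and the 8 profiles most like Igkc. Other members are named to account for the whole family. The members, lists and relations were chosen with earlier results of these data known. Same-numbered arrays of the Pdpn sort deviated together (r = 0.201, 0.161 and 0.205), and a fit with the number as a block changed no call in that sort. Other analyses used Python 3.11.15, NumPy 2.4.6, SciPy 1.17.1 and pandas 2.3.3.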

Additional observations from a re-analysis of the deposited data

Results flagged for a closer look

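For 9 genes the difference between positive and negative cells itself differed between the 6 sorts by limma's F test with Benjamini-Hochberg adjustment. Over all genes tested 63.2% differed by the same test, so the 9 of 21 were a smaller share. The adjusted p was 2.2e-05 for Iglv1, which was lower in 4 sorts and not called in the Gad1 and Cea1 sorts. It was 3.3e-05 for Igkv1-110, which was lower in the Pdpn and Tspan8 sorts and higher in the Cea1 sort. It was 0.0011 for Igkv9-124, 0.0012 for Igkv6-23, 0.0025 for Igkc, 0.0032 for Igkv10-95, 0.0076 for Ighg1, 0.01 for Ighm and 0.012 for Igkv4-62. Igkv6-23 and Igkv10-95 were lower in the Pdpn sort and higher in the Cea1 sort, Igkv10-95 and Ighg1 were also lower in the Gp2 sort, and Igkv9-124, Igkv4-62 and Ighm were called in the Pdpn sort alone. Groups of 2 or 3 arrays are too small for a test of outlying samples.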

How the results depend on the processing

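Of the 25 calls of a gene in a sort, 12 were made under every alternative. Setting each call against each alternative that covered it gave 316 comparisons, many of them from the same refit. None of the 316 changed direction, and 62 lost the call. The lower genes of the Pdpn sort were 9 with each sort fitted on its own and 9 to 15 when leaving out 1 array, and the higher ones 0 to 1. In the Gp2 sort the lower genes were 6 under median scaling, 1 in the authors' normalized values, 11 with the replicate block and 2 to 6 leaving out 1 array; the higher ones were 0 with the sort fitted on its own and 0 to 1 leaving out 1 array. In the Cea1 sort the higher genes were 0 in the authors' normalized values, 6 with the sort on its own, 6 with the replicate block and 0 to 3 leaving out 1 array. With the block, limma called Igkc (adjusted p = 0.0027) and Ighm (adjusted p = 0.00046) higher in the Cea1 sort. It also called Igkv1-110 lower in the Gp2 sort (-2.41, adjusted p = 0.00052). The 11 lower genes of that sort with the block included Ighv5-9-1 and Igkv13-84, which had passed the detection filter in Gp2-negative cells alone. The 6 under median scaling included Ighv5-9-1. In the Ins2 sort the lower genes were 2 under median scaling, in the authors' normalized values, with the sort on its own and with the block, and 0 to 1 leaving out 1 array; 1 was higher with the sort on its own. Counting probes in place of genes gave 2 lower probes in the Ins2 sort, both of Iglv1, and 5 in the Tspan8 sort, of the same 3 genes. All other counts of immunoglobulin genes, among them 0 in the Gad1 sort, stayed within 1.5 times the reported one. In the Ins2 sort B cell genes higher were 0 under median scaling and 1 with the sort on its own, in place of 4, and plasma cell and secretory genes under median scaling were 1 higher and 6 lower, in place of 2 and 0; without Ins2-positive 3, 1 was lower. Leaving out 1 array gave -3.38 to 0.44 for Igkc in the Gp2 sort, which turned without Gp2-positive 2 and was -2.07 with the replicate block (adjusted p = 0.0021), and -0.00369 to 0.47 for Iglv1 in the Gad1 sort, which turned without Gad1-positive 1. Median scaling moved the median of all genes to -0.26 in the Gp2 sort and -0.28 in the Ins2 sort and the share of higher genes among those called from 45% to 20.5% and from 48.4% to 16.5%. Outside the Pdpn sort no sort had 3 pairs that all correlated above 0.1, so fits with the block outside that sort are alternatives only. The Gp2 sort had only 2 pairs and could not meet that rule, with r of 0.238 and 0.109. Every array was closest to its own number in the Pdpn, Cea1 and Tspan8 sorts, a hint from the data, and 3 of 6 in the Gad1 sort. Where a group was left with 1 array, that array was assumed to vary like the other groups. The other causes were not tested. Segments not detected on any array of a group have only a bound there, and 2 or 3 arrays per group limit precision.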

Other observations

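The array of Ins2-negative 2 had no usable bead intensities, and its normalized intensities entered only the refit on the authors' values. Its deposited detection p-values showed which immunoglobulin genes stood above background in that sample. Igkc, Ighm and Iglv1 were detected, as on the 34 arrays with usable bead intensities. Igkv9-124 was detected as well, while the other Ins2-negative arrays gave 4.25 and 4.21 for it, and so was Ighv7-3, at 4.17 and 4.15 on those arrays. Further kappa V segments were also detected in that sample. It thus had more kappa and heavy chain V segments detected than either of the other Ins2-negative arrays. Igkv1-110 and Igkv6-23 were not detected. These p-values rank a probe against background on 1 array and compare no groups.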
